A study of Mus musculus with 14 samples.

Results

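The PDGF and VEGF family ligands examined here are Pdgfa, Pdgfb, Pdgfc, Pdgfd, Vegfa, Vegfb, Vegfc and Pgf, the 8 genes of 37680 in the count table whose identifiers map to these symbols. They were chosen by name, and 6 of the 8 passed the filter on low counts (at least 10 reads in at least 3 libraries). RNA-seq was done on epithelium released with EDTA from the colon of adult mice. The groups were WT mice on water (untreated, 4 libraries), Smad4 IEC-KO mice on water (4 libraries), and WT and Smad4 IEC-KO mice given 2.5% DSS (dextran sulfate sodium, a polysaccharide that injures the colonic mucosa) in the drinking water for 3 d (3 libraries each). In Smad4 IEC-KO mice, floxed Smad4 is deleted by a tamoxifen-inducible Cre under the Villin promoter, which is active in the intestinal epithelium. The methods place the Villin-CreERT2 transgene in mutants and controls.

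PDGFs and VEGFs are related dimeric growth factors whose subunits share a cystine knot fold. PDGF-A and PDGF-C act mainly on PDGFRα of fibroblasts, and PDGF-B and PDGF-D on PDGFRβ of pericytes and smooth muscle, so that PDGF from an epithelium reaches the mesenchyme beneath it. VEGF-A drives angiogenesis through VEGFR2 (Kdr), VEGF-B and PlGF (Pgf) bind VEGFR1 (Flt1), VEGF-C acts on VEGFR3 (Flt4) of lymphatic endothelium, and the neuropilins Nrp1 and Nrp2 are co-receptors.

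The libraries held 12882827 to 26087231 counts, and mitochondrial genes took 4.05% to 32.8% of them, with WT water replicates 3 and 4 and KO water replicate 4 above 20%. Smad4 had 2296 to 3085 normalized counts in WT on water and 3298 to 3532 in WT after DSS, against 782 to 850 in KO after DSS. On water, KO replicates 2, 3 and 4 had 717, 906 and 679, but the library labelled KO water replicate 1 had 3063, within the range of WT. That library was kept under its label, and the results on KO water are given with it (n = 4) and without it (n = 3). The paper's figure legends for the RNA data give 4 replicates of WT on water and 3 of KO on water. They do not name the KO libraries used. The epithelial markers Epcam, Krt8, Krt18, Cdh1, Vil1, Cdx2 and Lgals4 were high in all libraries (summed normalized counts of 228968 to 349869). Of the endothelial markers, Cdh5, Kdr, Flt1 and Emcn had 0 to 5 reads per library, with Emcn at 0 in all. Pecam1 had 4 to 18 reads, Tek 0 to 13, Plvap 2 to 36 and Vwf 52 to 135, and the sum over these 8 endothelial markers was 86.1 to 213 normalized counts. The sample names begin with different letter codes, whose meaning is not given: the KO DSS libraries all carry the code D, and no KO water library does. DSS against water in KO and this code cannot be told apart. In bulk RNA, fewer cells of a type and less RNA per cell cannot be told apart either.

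The ligand genes that carry most of the results, Pdgfa and Vegfb, are shown with Vegfa by the stretch before their RefSeq start (GRCm38.p6), placed by exact match in mm9 and read 5′ to 3′ on the gene's own strand. The windows were at chr5:139470992-139471148 (minus strand, 157 bases directly before the first exon of the transcript Pdgfa-001, in an intron of transcripts that start further upstream and partly in an exon of 6330403L08Rik on the other strand) for Pdgfa, chr19:7062142-7062391 (minus strand, 250 bases) for Vegfb and chr17:46169327-46169576 (minus strand, 250 bases) for Vegfa. Capitals mark the GC box (GGGCGG or its reverse complement), the element bound by Sp1.
Pdgfa: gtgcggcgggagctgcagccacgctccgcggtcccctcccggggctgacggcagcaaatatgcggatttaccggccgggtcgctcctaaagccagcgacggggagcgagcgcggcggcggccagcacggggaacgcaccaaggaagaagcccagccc
Vegfb: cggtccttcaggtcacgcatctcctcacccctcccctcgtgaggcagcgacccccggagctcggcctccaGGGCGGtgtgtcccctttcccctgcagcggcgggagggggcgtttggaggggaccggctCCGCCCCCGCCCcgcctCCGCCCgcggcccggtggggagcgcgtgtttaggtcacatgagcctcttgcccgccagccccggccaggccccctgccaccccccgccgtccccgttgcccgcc
Vegfa: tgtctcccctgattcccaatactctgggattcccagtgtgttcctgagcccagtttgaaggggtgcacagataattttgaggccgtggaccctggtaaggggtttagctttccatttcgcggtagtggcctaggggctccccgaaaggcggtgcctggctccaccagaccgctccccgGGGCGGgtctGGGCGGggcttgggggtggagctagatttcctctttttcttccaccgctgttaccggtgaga
The Pdgfa stretch was 72% G or C with 20 CpG and held no GC box, while the whole 250-base window, which runs into that first exon, held 2. Another RefSeq start of Pdgfa has its 250-base window at chr5:139470236-139470485, inside the gene, which held 1 GC box. The Vegfb window was 76.4% G or C with 26 CpG and 4 GC boxes, and the Vegfa window was 59.2% G or C with 11 CpG and 2 GC boxes. For comparison, 32.7% of 32851 promoter windows of 250 bases held a GC box on either strand. The Pdgfa stretch of 157 bases is shorter than the windows behind this and the following shares. The palindromic Smad element (GTCTAGAC, in 0.167% of windows), the GC-rich Smad motif (GGCGCC, in 9.59%) and the hypoxia response core (ACGTG, in 16.6%) were in none of the 3 printed stretches. A second RefSeq start of Vegfa has its 250-base window at chr17:46162113-46162362, inside the gene, which held 1 hypoxia response core, 1 GC box and 1 CAGAC. The shorter Smad core (CAGAC, in 42.2% of windows) was found 2 times in the printed Vegfa window, once overlapping a GC box, and not in those of Pdgfa and Vegfb. A match or its lack describes these letters and says nothing of binding.

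Across all 14 libraries the ligands fell into levels far apart. Per kb of exon, WT epithelium on water had 376 ± 68.3 normalized counts of Vegfb, 352 ± 94.1 of Pdgfa and 342 ± 62.9 of Vegfa (SD, n = 4), and these 3 did not differ beyond their spread. Vegfc followed with 43.5 ± 9.44 and Pdgfb with 33.3 ± 17.2, again within each other's spread. Pdgfc was lower, with 4.32 ± 2.95, and Pdgfd and Pgf, at 0 to 8 reads per library, were close to the limit of detection. In KO on water Pdgfa had the highest mean, with 738 ± 436 normalized counts per kb against 293 ± 21.9 of Vegfa and 259 ± 41.5 of Vegfb (SD, n = 4). The wide spread of Pdgfa overlapped that of Vegfa. The Pdgfa mean was 889.7 per kb when KO water replicate 1 was left out (n = 3). After DSS, KO had 609.6 ± 73.4 per kb of Pdgfa, above 293 ± 53.3 of Vegfa and 198 ± 50.8 of Vegfb (SD, n = 3), while in WT Pdgfa (285 ± 66.8), Vegfa (280.0 ± 51.7) and Vegfb (234 ± 26.9) lay together.

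**Figure D1:**
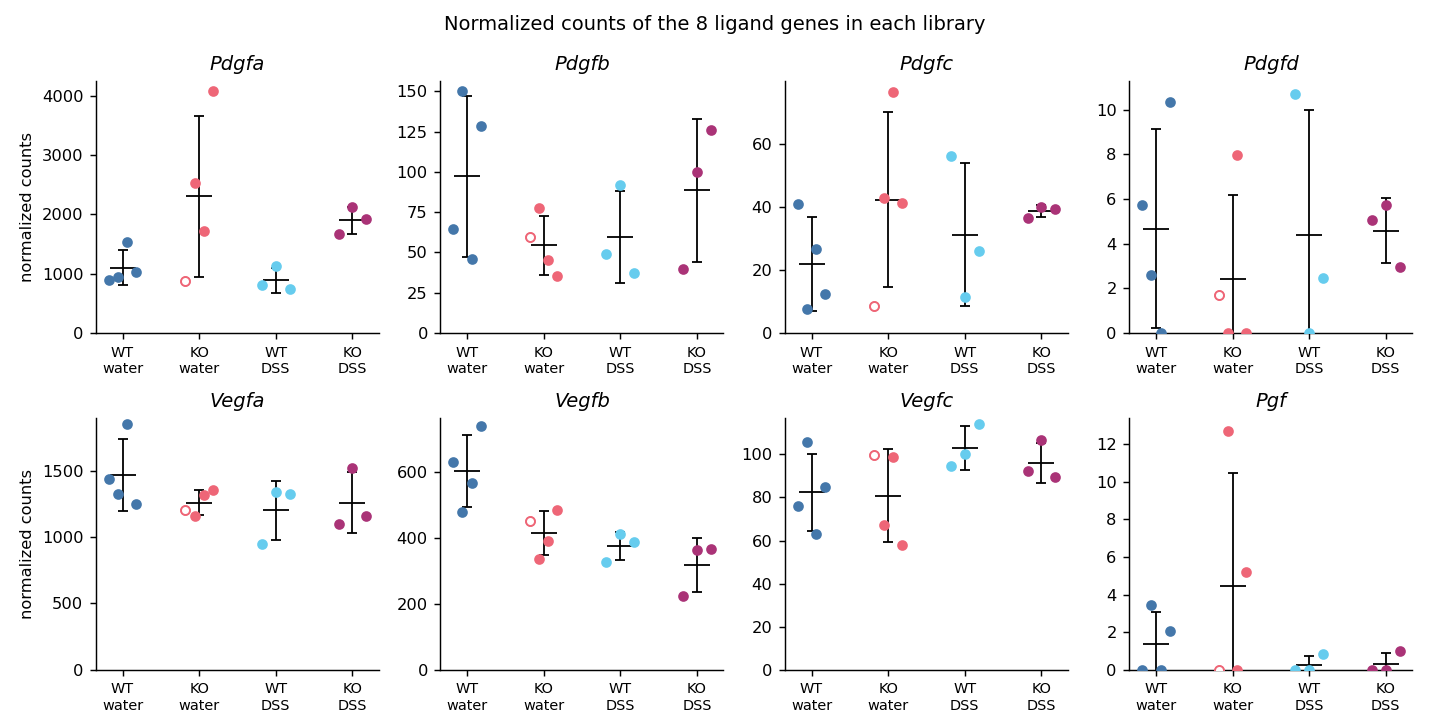
Normalized counts (TMM) of each ligand gene, 1 panel per gene, by group. Points are libraries, black bars are the mean ± SD (cut at 0), and the open point is KO water replicate 1. Pdgfa is higher in the KO libraries with low Smad4 than in WT, and Pdgfd and Pgf stay below 13.

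Pdgfa encodes PDGF-A, the ligand that epithelia send to PDGFRα-positive fibroblasts. The gene (ENSMUSG00000025856) lies on the minus strand at chr5:139451968-139473324 of mm9. WT on water had 886, 944, 1529 and 1032 normalized counts in replicates 1 to 4, and KO on water had 877, 2526, 1725 and 4075. The 3 KO libraries with low Smad4 were each above all 4 WT libraries, as were 7.26% of the tested genes. Replicate 1, with Smad4 at WT level, was below every WT library. The groups of 4 therefore overlapped. The means were 1098 ± 293 in WT and 2300.5 ± 1361 in KO (SD, n = 4), a log2 fold change of 1.07 (SE, standard error, 0.33, 95% interval 0.37 to 1.77, edgeR adjusted p = 0.054), so that the difference did not pass the threshold of 0.05. Without KO water replicate 1 the KO mean was 2775 ± 1195 (SD, n = 3), and in the 13-library model the log2 fold change was 1.34 (SE 0.26, edgeR adjusted p = 0.014), which passed. In the model of the water libraries alone the adjusted p without that library was 0.13. The exact permutation test of the means (two-sided) gave p = 0.17 for 4 against 4 libraries, and p = 0.029, the smallest that 3 against 4 can give, without that library. Without KO water replicate 4, which holds the highest Pdgfa value, the log2 fold change was 0.65 (edgeR adjusted p = 0.092). In the libraries with a mitochondrial share below 10% it was 0.91 (edgeR adjusted p = 0.079). Among libraries with the same letter code, 1 WT water library of code Z had 1529 against 877 and 2526 in KO, and 1 of code MP had 1032 against 4075, too few for a test.

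After DSS, Pdgfa had 806, 1128 and 737 normalized counts in WT and 1666, 2123 and 1914 in KO. All 3 KO libraries were above all 3 WT libraries, as were 10.4% of the tested genes in the same direction. The log2 fold change was 1.09 (SE 0.38, 95% interval 0.28 to 1.90, edgeR adjusted p = 0.81) in the model of 14 libraries. When only the 6 DSS libraries were fitted by edgeR, the size was nearly the same (1.10), the SE was 0.16 and the adjusted p was 0.022, where 0.801% of genes passed. An exact permutation test gave p = 0.1, the smallest possible with 3 against 3. Within code D, the 2 WT libraries had 806 and 1128 and the 3 KO libraries 1666 to 2123. The ratio of the means was 2.10 on water, 2.53 without KO water replicate 1, and 2.14 after DSS. The difference between the genotype effects was 0.03 on the log2 scale (95% interval -1.03 to 1.09, edgeR adjusted p = 0.99), and -0.24 without that library (SE 0.38, edgeR adjusted p = 0.86).

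Between DSS and water, Pdgfa was not called in either genotype. WT had 890.4 ± 208 normalized counts after DSS (SD, n = 3) against 1098 ± 293 on water, a log2 fold change of -0.30 (95% interval -1.06 to 0.46, edgeR adjusted p = 0.66). KO had 1901 ± 229 after DSS (SD, n = 3) against 2300.5 ± 1361 on water (log2 fold change -0.27, 95% interval -1.02 to 0.48, edgeR adjusted p = 0.88). Without KO water replicate 1 the latter was -0.55 (edgeR adjusted p = 0.60). In both genotypes the groups overlapped.

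**Figure D2:**
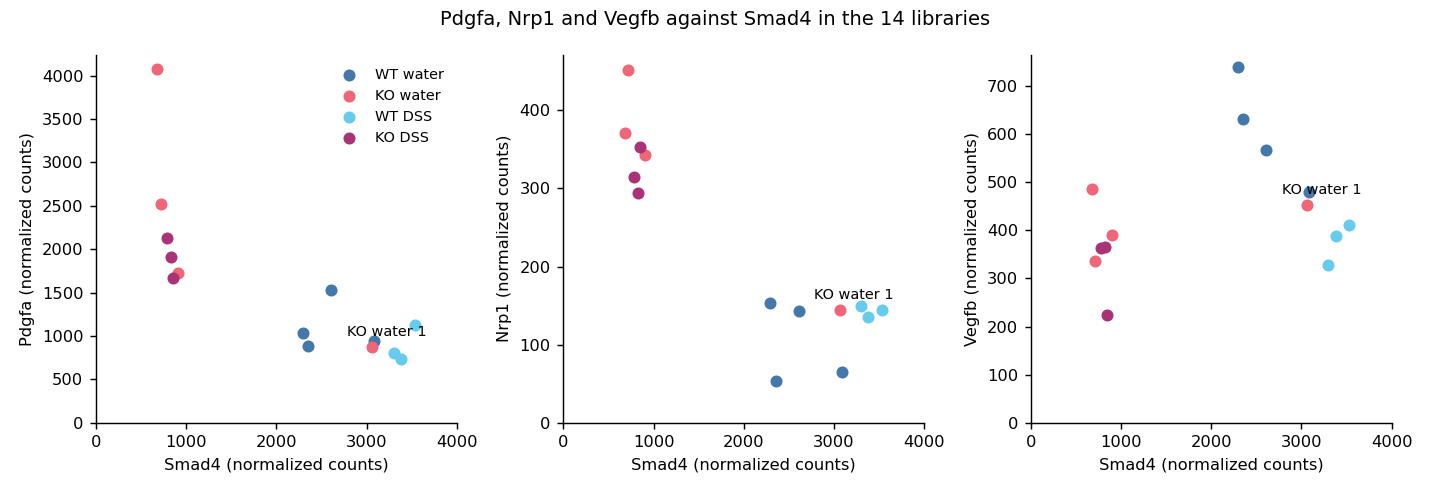
Normalized counts of Pdgfa, Nrp1 and Vegfb (y axes) against Smad4 (x axis) in each of the 14 libraries, coloured by group. KO water replicate 1 lies with the WT libraries for Smad4, Pdgfa (877) and Nrp1 (144), and Vegfb shows no such split.

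The gene 6330403L08Rik, on the opposite strand, overlaps 813 bases of Pdgfa exons, those of the transcripts that start upstream of Pdgfa-001. The strand of the counting is not given, so reads of the overlap cannot be told apart. 6330403L08Rik, chosen after this overlap was seen, had 23.7 to 104 normalized counts in WT on water and 82.7, 346, 185 and 333 in KO on water. It had 83.2 to 112 in WT and 209 to 317 in KO after DSS. As for Pdgfa, KO water replicate 1 was at WT level. On water the other KO libraries were above all WT libraries, as were 7.26% of the tested genes. After DSS all KO libraries were above all WT libraries, as were 10.4%. The log2 fold change of 6330403L08Rik was 1.67 on water (SE 0.43, edgeR adjusted p = 0.034) and 1.34 after DSS (SE 0.48, edgeR adjusted p = 0.84).

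Fibroblast markers differed between the genotypes as well. The summed normalized counts of Pdgfra, Col1a1, Col1a2, Col3a1, Dcn and Lum were 17.4 to 78.7 in WT and 57.7 to 479.6 in KO on water, and 5.34 to 36.7 in WT and 139.6 to 251 in KO after DSS. Of 6 markers, 4 were tested, and 2, Col1a2 and Dcn, were called higher in KO on water, where 8.44% of all tested genes were called. Pdgfra and Lum, defining markers of fibroblasts, had at most 10 reads and 1 read in any library. In KO water replicates 1 to 4 the marker sums were 213, 57.7, 144 and 479.6, beside 877, 2526, 1725 and 4075 normalized counts of Pdgfa, so that replicate 4 was highest in both and replicates 1 and 2 were in opposite order. After DSS, all 3 KO libraries were above all 3 WT libraries in the marker sum and in Pdgfa alike. No marker of epithelium, smooth muscle and pericytes, endothelium, myeloid or lymphoid cells or surface colonocytes was called between the genotypes on water, and of 4 crypt markers Lgr5 was called higher in KO. The surface colonocyte markers Krt20, Slc26a3, Aqp8 and Guca2a were lower in KO all the same. Their sums were 35545 to 45855 in WT and 26762 to 36932 in KO on water (3 markers lower, 1 higher). After DSS the sums were 31628 to 37830 in WT and 24683 to 27748 in KO (all 4 lower, none called). The sums of the other types in this list overlapped between the genotypes. The part of other cells, or of the share of surface colonocytes, in the differences of Pdgfa, Pdgfc, Nrp1 and Hgf was not tested.

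Pdgfb encodes PDGF-B, the ligand that recruits pericytes to vessels, and lies on the minus strand at chr15:79826330-79845238. WT had 64.5, 150, 45.7 and 128 normalized counts on water, KO 59.7, 77.4, 45.4 and 35.2. After DSS, WT had 49.0, 92.1 and 37.5, and KO 39.5, 100.2 and 126. No pair of groups was apart, since each spanned more than a doubling between its own libraries. The genotype difference was -0.84 on the log2 scale on water (95% interval -1.78 to 0.10, edgeR adjusted p = 0.22) and 0.57 after DSS (95% interval -0.50 to 1.65, edgeR adjusted p = 1.00). The difference between these effects was 1.41 (95% interval -0.02 to 2.84, edgeR adjusted p = 0.64). DSS against water gave -0.71 in WT and 0.70 in KO (edgeR adjusted p = 0.40 and 0.73). With KO water replicate 1 left out, Pdgfb differed by -0.89 between the genotypes on water (edgeR adjusted p = 0.26) and by 0.75 between DSS and water in KO (edgeR adjusted p = 0.72).

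Pdgfc encodes PDGF-C, which is secreted in a latent form and cut to its active core outside the cell. It lies at chr3:80840338-81017962 and shares 147 exonic bases with Gm16000 on the opposite strand. WT had 40.9, 7.73, 26.8 and 12.4 normalized counts on water, and KO 8.52, 42.7, 76.5 and 41.4. KO water replicate 1 was again at WT level, and the other 3 KO libraries were above all of WT, as were 7.26% of the tested genes. After DSS, WT had 56.1, 11.5 and 26.1 and KO 36.5, 40.1 and 39.3. The log2 fold change on water was 0.92 (95% interval -0.42 to 2.25, edgeR adjusted p = 0.35), and 1.26 without KO water replicate 1 (SE 0.57, edgeR adjusted p = 0.16). After DSS it was 0.31 (95% interval -1.19 to 1.81, edgeR adjusted p = 1.00). DSS against water gave 0.48 in WT and -0.13 in KO (edgeR adjusted p = 0.72 and 0.98). In KO, all 3 DSS libraries were below the 3 water libraries with low Smad4, as were 6.47% of the tested genes, and without KO water replicate 1 the log2 fold change was -0.48 (edgeR adjusted p = 0.87). These values rest on 6 to 96 reads per library. Pdgfd, a second latent PDGF, at chr9:6168612-6378843, had 0 to 12 reads per library and was not tested. It had no read in 1 WT water library, in 2 KO water libraries and in 1 WT DSS library.

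Vegfa encodes VEGF-A, the main angiogenic factor and a classical hypoxia target, and lies on the minus strand at chr17:46153942-46169326. WT had 1440.4, 1322, 1854 and 1249 normalized counts on water, and KO had 1204, 1155, 1314 and 1357. After DSS the values were 946, 1339 and 1321 in WT and 1097, 1522 and 1160.2 in KO. All 4 groups overlapped. The genotype difference was -0.22 on water (95% interval -0.55 to 0.11, edgeR adjusted p = 0.36) and 0.07 after DSS (95% interval -0.31 to 0.45, edgeR adjusted p = 1.00). DSS against water gave -0.29 in WT (95% interval -0.65 to 0.07, edgeR adjusted p = 0.34) and 0.00 in KO (95% interval -0.35 to 0.36, edgeR adjusted p = 1.00). For none of the 4 comparisons did the interval reach a doubling or a halving. With KO water replicate 1 left out, the Vegfa genotype difference on water was -0.20 (edgeR adjusted p = 0.47).

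Vegfb encodes VEGF-B, which binds VEGFR1 and is weakly angiogenic, and lies on the minus strand at chr19:7056963-7062141. WT on water had 632, 479, 566 and 739.7 normalized counts, and KO on water had 453, 336, 390 and 486. The KO values were lower on average, and only the highest KO library (486) reached above the lowest WT library (479). The log2 fold change was -0.54 (SE 0.19, 95% interval -0.93 to -0.14, edgeR adjusted p = 0.075), short of the threshold, with an exact permutation p of 0.057. Without KO water replicate 1 it was -0.58 (SE 0.21, edgeR adjusted p = 0.09). Without KO water replicate 4 it was -0.60 (edgeR adjusted p = 0.033), which passed, as did 4104 of 15043 genes in that fit. In the libraries with a mitochondrial share below 10% it was -0.50 (edgeR adjusted p = 0.13). Of 24 alternatives, 3 called Vegfb on water. After DSS, WT had 328, 412 and 387 and KO 224, 364 and 366, which overlapped (log2 fold change -0.24, 95% interval -0.70 to 0.22, edgeR adjusted p = 1.00). In WT, all 3 DSS libraries were below all 4 water libraries, as were 11.6% of the tested genes. The log2 fold change was -0.68 (SE 0.20, 95% interval -1.12 to -0.25, edgeR adjusted p = 0.12), with an exact permutation p of 0.057. Within code D, WT had 632 and 479 on water against 328 and 412 after DSS. Among the libraries of low mitochondrial share the WT log2 fold change was -0.55 (edgeR adjusted p = 0.27). In KO, DSS against water was -0.39 (95% interval -0.82 to 0.05, edgeR adjusted p = 0.65). The highest group for Vegfb was thus WT on water, with 604 ± 110 normalized counts (SD, n = 4), against 416 ± 66.6 in KO on water, 376 ± 43.2 in WT after DSS and 318 ± 81.5 in KO after DSS.

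Vegfc encodes VEGF-C, the growth factor of lymphatic vessels, and lies at chr8:55162886-55271808. Its normalized counts were 63.1 to 106 in WT on water, 58.0 to 99.7 in KO on water, 94.4 to 114 in WT after DSS and 89.5 to 107 in KO after DSS. The DSS libraries lay in or just above the upper part of the water range, and the groups overlapped. The log2 fold change of DSS against water was 0.32 in WT (95% interval -0.25 to 0.88, edgeR adjusted p = 0.51) and 0.25 in KO (95% interval -0.32 to 0.81, edgeR adjusted p = 0.85). The genotypes differed by -0.03 on water (95% interval -0.55 to 0.50, edgeR adjusted p = 0.95) and by -0.10 after DSS (95% interval -0.70 to 0.50, edgeR adjusted p = 1.00). With KO water replicate 1 left out, Vegfc differed by -0.14 between the genotypes on water (edgeR adjusted p = 0.76) and by 0.36 between DSS and water in KO (edgeR adjusted p = 0.76).

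Pgf, the gene of placental growth factor, at chr12:86507589-86518246, had 0 to 11 reads per library and was not tested. The 11 and 5 reads of KO water replicates 2 and 4 were the highest, and 8 of the 14 libraries had none.

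**Figure D3:**
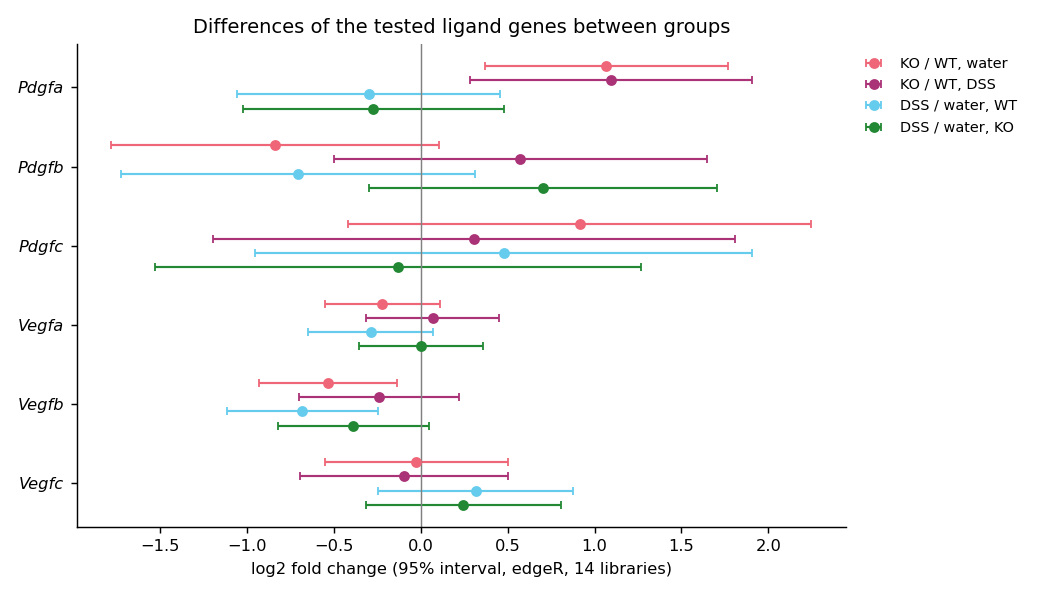
Log2 fold changes of the 6 tested ligand genes with 95% intervals from the edgeR model of 14 libraries, for KO against WT on water and after DSS and for DSS against water in WT and KO. The intervals of Pdgfa for both genotype comparisons lie above 0 and those of Vegfb on water and for DSS in WT below 0, before adjustment over all genes.

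Counted over the 6 tested ligands, none was called by edgeR in any of the 5 comparisons of the 14-library model. Smad4, the deleted gene, was not called by this model either, with an edgeR adjusted p of 0.095 on water and 0.21 after DSS. Without KO water replicate 1 the edgeR adjusted p of Smad4 was 3.9e-05 on water and 1.8e-05 after DSS. When the 6 DSS libraries alone were fitted it was 1.6e-05. The lack of a call in the 14-library model thus does not show that a gene is unchanged. Of all 15127 tested genes, 8.44% were called for KO against WT on water, 0.0132% for KO against WT after DSS, 0% for DSS against water in WT, 0.0661% for DSS against water in KO and 0.00661% for the difference between the effects. The number called on water, 1276, rested on single libraries: it was 4 without WT water replicate 4, 5 without KO water replicate 3, 16 without KO water replicate 2 and 4104 without KO water replicate 4, and 1 when the water libraries alone were fitted. At an unadjusted p below 0.05 there were 2 ligands on water (Pdgfa and Vegfb, of 6, where 29.3% of all genes were below it), 1 for the genotypes after DSS (Pdgfa, with 4.43% of all genes), 1 for DSS in WT (Vegfb, with 21% of all genes) and 0 for DSS in KO (8.4%) and for the difference between the effects (7.5%). DESeq2 called Pdgfa (adjusted p = 0.014) and Vegfb (adjusted p = 0.041) on water, where it called 18.4% of all genes. It called Vegfb in WT after DSS (adjusted p = 0.034), where it called 6.37%. It called no ligand between the genotypes after DSS (0.324% of all genes), for DSS in KO (0.443%) or for the difference between the effects (0.0529%). Without KO water replicate 1, edgeR called 1 ligand on water, Pdgfa, against 7.66% of all genes. In that comparison Pdgfa and Pdgfc had every KO library above every WT library, against 7.26% of the genes tested. The median log2 fold change of the 6 ligands was -0.12 on water, 0.19 between the genotypes after DSS, -0.29 for DSS in WT and -0.06 for DSS in KO, beside medians of -0.01, 0.00, -0.01 and -0.02 over all genes tested. The ligand median without KO water replicate 1 was -0.17 on water and -0.18 for DSS in KO.

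Receptors receive these ligands on the target cell, and their genes were read in the same libraries. Nrp1, a co-receptor of VEGF and of class 3 semaphorins, was the receptor gene that was called. It had 53.8, 64.4, 144 and 153 normalized counts in WT and 144, 452, 343 and 371 in KO on water, and 150, 144 and 135 in WT and 353, 315 and 294 in KO after DSS. KO water replicate 1 was at WT level. The other 3 KO libraries on water were above all 4 WT libraries on water, as were 7.26% of the tested genes. After DSS, all 3 KO libraries were above all 3 WT libraries, as were 10.4%. The log2 fold change on water was 1.70 (SE 0.35, edgeR adjusted p = 0.023), and 1.94 without KO water replicate 1 (SE 0.30, edgeR adjusted p = 0.0071). The call on water was lost without WT water replicate 4 (edgeR adjusted p = 0.06), KO water replicate 2 (0.075) or KO water replicate 3 (0.076). It was also lost with the letter code as a block, where the log2 fold change of Nrp1 was 1.14 (edgeR adjusted p = 0.065), and when the water libraries alone were fitted (edgeR adjusted p = 0.15, and 0.12 without KO water replicate 1). After DSS it was 1.16 (SE 0.39, edgeR adjusted p = 0.74) in the model of 14 libraries and 1.17 (SE 0.14, edgeR adjusted p = 0.0082) in that of the 6 DSS libraries. Nrp2 ranged from 233 to 920 normalized counts, with KO water replicate 2 highest, and Pdgfrb from 112 to 205, and neither was called in a comparison. Pdgfra had 0 to 10 reads, the soluble PDGF receptor-like gene Pdgfrl 0 to 18, Flt1 0 to 5, Kdr 0 to 3 and Flt4 0 to 2. Of the 8 receptor genes 4 were tested, and 1 was called on water, beside 8.44% of all tested genes. VEGF-D, the other VEGF ligand (Figf), had 2 to 20 reads and no call. Per kb, the ligands Pdgfa, Vegfa and Vegfb were thus each at 198 or more in every group, while Pdgfrb stayed at 23.8 to 30.6, Nrp1 at 17.6 to 55.4 and Kdr and Flt1 at 0.107 or less.

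**Figure D4:**
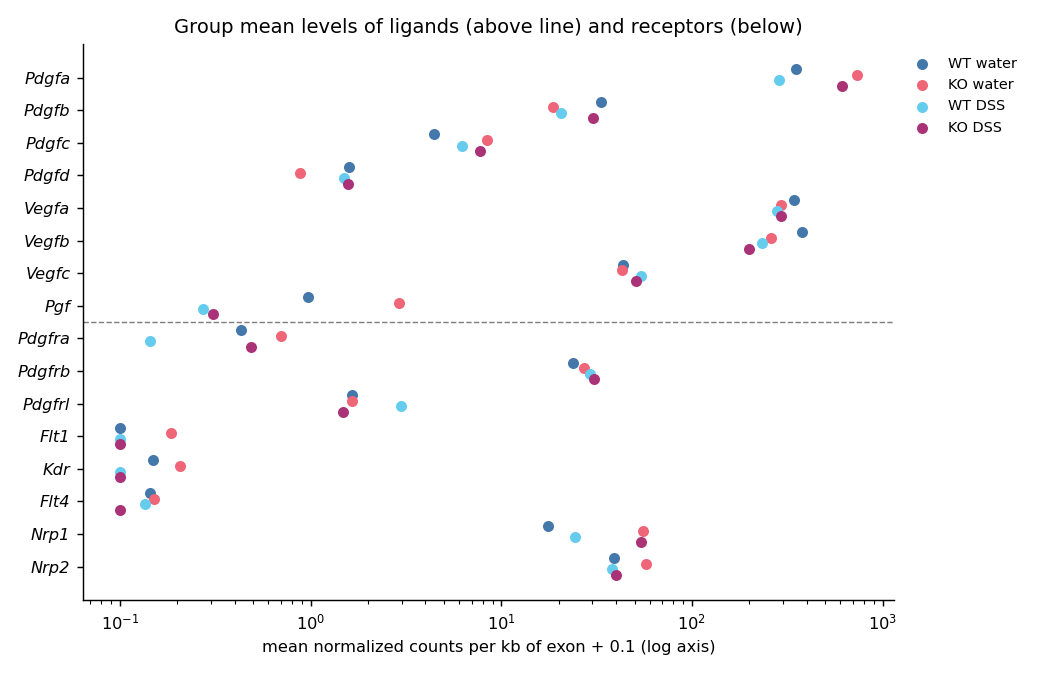
Group means of normalized counts per kb of exon, plus 0.1, on a log axis, for the 8 ligand genes (above the dashed line) and 8 receptor genes (below it), coloured by group. Pdgfa, Vegfa and Vegfb lie near or above 200 in all groups, and Flt1, Kdr and Flt4 lie at the left edge.

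The genes that process or govern these ligands were read from lists. Of 8 tested processing genes (of 10 listed), which include the proprotein convertases and plasminogen activators, none was called in the model of 14 libraries. When KO water replicate 1 was left out, 1 was called on water, the convertase gene Pcsk5 (log2 fold change 1.14, SE 0.33, edgeR adjusted p = 0.0498), against 0.93 and 0.089 with all libraries. St14, the membrane protease matriptase, and Pcsk7, a convertase, had the highest levels, with 8642 and 2357 normalized counts on average and log2 fold changes on water of -0.33 and -0.21 (edgeR adjusted p = 0.23 and 0.24). Of 7 hypoxia regulators, 1 was called on water, a share near the 8.44% of all tested genes. Egln2, a HIF prolyl hydroxylase, fell from 2279 ± 276 normalized counts in WT to 1364 ± 256 in KO (SD, n = 4), with a log2 fold change of -0.74 (SE 0.14, edgeR adjusted p = 0.021). All its KO values were below all its WT values, as for 5.2% of the tested genes. None of 13 hypoxia targets was called in any comparison, with the most abundant, Ldha and Pgk1, at log2 fold changes of -0.02 and 0.33 on water (edgeR adjusted p = 0.95 and 0.27). The medians of these targets were 0.15 on water, 0.13 for the genotypes after DSS, 0.19 for DSS in WT and 0.11 for DSS in KO. They were 0.23 on water and 0.014 for DSS in KO without KO water replicate 1. Of 6 tested vascular factors (of 11 listed), 2 were called higher in KO on water, beside 8.44% of all tested genes called in either direction. Sema3c, a semaphorin that binds neuropilins, had 1161 to 1573 normalized counts in WT and 1865 to 2363 in KO (log2 fold change 0.61, SE 0.13, edgeR adjusted p = 0.023). Hgf, hepatocyte growth factor, had 0 to 21 reads in WT and 12 to 155 in KO, which overlapped (log2 fold change 2.54, SE 0.66, edgeR adjusted p = 0.036). With KO water replicate 1 left out, the log2 fold changes were -0.81 for Egln2, 0.65 for Sema3c and 2.66 for Hgf (edgeR adjusted p = 0.012, 0.020 and 0.040). The Egln2 and Sema3c calls were lost without WT water replicate 4, KO water replicate 2 or KO water replicate 3 and when the water libraries alone were fitted (edgeR adjusted p = 0.15 for both, and 0.14 and 0.16 without KO water replicate 1), and that of Hgf in 11 of 24 alternatives.

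The pattern of each ligand over the 14 libraries was set beside those of 11507 other genes with a mean of at least 50 normalized counts, as a description. Pdgfa was most like Rab31 (Pearson r = 0.89 of log2 normalized counts), Afap1l1 (0.88) and Wdr75 (0.87), and Nrp1 stood 17th (0.79). Vegfb was most like Prcc (0.95), 1110049F12Rik (0.94) and Cln6 (0.94), and Vegfa was most like Ankrd13b (0.86), Zc3h3 (0.85) and Csnk1e (0.84). Vegfc was most like 0610040J01Rik (0.89), Kctd7 (0.88) and Srebf2 (0.88), and Pdgfb most like Cyhr1 (0.85) and the pseudogenes Rpl3-ps2 (0.84) and Rpl3-ps1 (0.83). Between the 6 tested ligands, r ran from -0.59 (Pdgfa with Vegfc) to 0.53 (Vegfa with Vegfb). All these values share the libraries, their depth and their mitochondrial share.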

How the data were processed

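Counts came from 14 poly(A) RNA-seq libraries of mouse colon epithelium. Per the submitters' processing notes, HISAT2, featureCounts and mm9 were used, and the authors deposited raw counts per gene, not normalized. The strand setting of the counting is not given. Of 37680 genes in the table, 14001 were at 0 throughout. Libraries were grouped by their labels, which do not say that each came from a separate mouse, so that p-values measure the spread between these libraries.

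The 15127 genes that reached 10 counts in 3 or more libraries entered 1 model of 14 libraries in edgeR 4.0.16 (R 4.3.3; quasi-likelihood, TMM), with Benjamini-Hochberg adjustment over all genes and a threshold of 0.05. Normalized counts are on a common library size. Log2 normalized counts (prior 1) were compared by two-sided exact permutation tests of the means. Alternatives were DESeq2 1.42.0, other normalizations, no filter, the 2 groups compared only, blocks of replicate number or name code, and each library left out. A model of the libraries with under 10% mitochondrial counts was added after seeing the data. The code was tested on simulated data. Gene positions come from GENCODE M1, and promoter windows from RefSeq, found for 7 of the 8 ligands and placed by exact match in mm9.

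Members and lists were chosen with earlier results of these data known. Named genes were all ligands and receptors, called genes of the other lists (or their 2 most abundant), and the 3 genes most like each ligand with a mean of at least 50 normalized counts. Total counts bound the precision, and genes at a few reads were not tested.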

Additional observations from a re-analysis of the deposited data

Results flagged for a closer look

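Among the ligands, Nrp1 and Smad4 in the groups of 4 libraries, 1 library stood apart from its group. Smad4 in KO water replicate 1 (3063 normalized counts) was separated from the nearest of the other 3 (906) by a gap of 0.905 of the range of its group, above the Dixon limit for 4 libraries. Chance gives about 1 such case in 20 groups, and 20 groups were examined. Pdgfa (877), Pdgfc (8.52) and Nrp1 (144) were also lowest in this library among the KO libraries on water, but none of these gaps passed the limit. For Egln2, Sema3c, Col1a2, Dcn and Cdh1 this library lay with the other KO libraries, outside the range of WT on water. Egln2, Sema3c, Col1a2 and Dcn had been called with this library counted as KO, and Cdh1 was named for this separation. These genes therefore cannot be used to judge its label. All 4 KO libraries on water were above all WT libraries for 5.18% of the tested genes and below them for 5.2%.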

How the results depend on the processing

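Of 862 values of named genes under the alternatives, 779 kept their direction and side of the threshold, 23 gained a call, 27 lost one and 33 changed sign. The losses fell on the results on water that had a call to lose: Nrp1 (6 of 24 alternatives), Sema3c (5), Egln2 (5) and Hgf (11). For KO against WT on water, where edgeR called 0 ligands, DESeq2 called 2, the fit with no filter on low counts 1, and DESeq2 without KO water replicate 1 called 1. Over all genes these fits called 2624 (of 15127 entered), 1404 (of 23679) and 2441 (of 15074). With libraries left out in turn the number of ligands ran from 0 to 1, and that of all genes from 4 to 4104. For the genotypes after DSS, the fit of the 2 groups alone and DESeq2 without KO water replicate 1 each called 1 ligand. Over all genes they called 114 (of 14241 entered) and 67 (of 15074). For DSS in WT, DESeq2 called 1 ligand with all libraries and 1 without KO water replicate 1. Over all genes it called 833 (of 15127 entered) and 782 (of 15074). The cause of these changes was not tested. Replicate numbers did not mark pairs in general: of 19 same-numbered pairs of libraries 2 had a correlation of deviations above 0.1 (median -0.021), and 3 of 14 libraries correlated best with their own number. The highest, 0.32, was between WT water replicate 4 and KO water replicate 4. Both carry the code MP, with mitochondrial shares of 32.8% and 21.4%. The replicate block called 2 ligands on water, Pdgfa (0.89, edgeR adjusted p = 0.042) and Vegfb (-0.53, edgeR adjusted p = 0.049), where it called 2977 of all 15127 genes. This block turned the log2 fold change for DSS in KO to 0.046 for Pdgfa and -0.019 for Vegfa.

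Other log2 fold changes changed sign too. A block of name codes gave 0.079 for Pdgfa with DSS in WT. With DSS in KO it gave 0.17 for Pdgfa (SE 0.58) and 0.047 for Pdgfc (SE 1.23). No code is shared by KO DSS and KO water libraries, so these values for KO rest on WT libraries of the same codes. The libraries under 10% mitochondrial counts gave 0.16 for Pdgfa with DSS in KO. When KO water replicate 1 was left out, Vegfa with DSS in KO was -0.020 in the fit of 2 groups and -0.024 in DESeq2, and DESeq2 gave differences between effects of -0.24 for Pdgfa and 0.047 for Vegfc. With libraries left out in turn, the genotype difference of Vegfc on water ran from -0.14 to 0.13, and those after DSS from -0.087 to 1.03 for Pdgfc and from -0.090 to 0.16 for Vegfa. DSS in WT ran from -0.25 to 1.02 for Pdgfc, and DSS in KO from -0.55 to 0.15 for Pdgfa, from -0.48 to 0.33 for Pdgfc and from -0.15 to 0.093 for Vegfa. The difference between effects ran from -0.24 to 0.44 for Pdgfa, from -1.15 to 0.11 for Pdgfc and from -0.22 to 0.046 for Vegfc. Depth limits Pdgfc, Pdgfd and Pgf most, which had 0 to 96 reads per library.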
